A study of Mus musculus with 12 samples.

Results

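The antioxidant and glutathione transferase genes described here are 33 genes of superoxide and peroxide removal, thiol reduction, glutathione synthesis, glutathione conjugation and their control. A probe was counted as a member when the intensity table or the authors' deposited table names it by one of these 33 symbols, out of 30979 gene names on the array. They have 65 of the 45281 probes. Of these, 52 probes of 30 genes had a detection p-value under 0.05 on at least 6 of the 12 arrays and were tested, 13 probes were not, and 3 genes (Gclc, Gsta4 and Hmox1) had no tested probe.

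RNA came from islets of Langerhans of 12 male C57BL/6 mice aged 8 weeks, 6 controls and 6 SRI-tg10 mice, with 1 array per mouse. The SRI-tg10 genotype combines 10 copies of an SRI transgene (sorcin, a calcium-binding protein), with luciferase, behind a promoter that tetracyclines induce. Its transactivator is driven by the rat insulin promoter, which confines induction to cells that use that promoter. Controls were littermates, and which transgenes they carried is not stated in the sources used here. By the design text, both groups ate 60% fat chow and drank doxycycline (500 mg/L), starting when 4 weeks old and lasting 4 weeks. The treatment label of each sample names doxycycline for SRI-tg10 mice only, so the labels differ on whether controls drank it. The source name reads beta cells and the tissue label reads islets, and all 10 listed beta cell markers were detected alongside alpha, delta, acinar, duct, endothelial and immune cell markers. Each title carries a letter, A or B, of unstated meaning, which covers replicates 1 to 3 (A) and 4 to 6 (B) of each group.

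Between 16271 and 20094 probes were detected per array. The transgene label was borne out on every array: Sri averaged a normalized log2 level of 9.86 ± 0.22 (SD) on the 6 control arrays and 14.53 ± 0.89 (SD) on the 6 SRI-tg10 arrays, with SRI-tg10 replicate 4 at 12.72 and the others from 14.81 to 14.96. Across the array, 4 of 18315 tested probes differed between the groups at an adjusted p under 0.05 with limma, 3 of them Sri and 1 Laptm4a. On the arrays of control replicate 5 and SRI-tg10 replicate 4, genes typical of small intestinal epithelium were high. Of 30 such genes, listed after this was seen, 20 were higher on both arrays than on any of the other 10, and 24 were detected on both. Their mean centred level was 2.35 and 2.11 on these arrays, against -0.64 to -0.26 on the other controls and -0.60 to 0.51 on the other SRI-tg10 arrays. Sis, the brush border sucrase-isomaltase, read 12.47 and 12.04 there and 4.54 to 8.59 elsewhere, while Fabp1, Fabp2, Slc15a1, Mep1a and Cdh17 were detected on neither. SRI-tg10 replicate 5 came next, at 0.51, with Sis at 8.59, Apoa1 at 8.91 and Guca2b at 7.99, and the remaining 9 arrays were at or below -0.26. Main results below are also given without control replicate 5 and SRI-tg10 replicate 4, and SRI-tg10 replicate 5 stays in those values.

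Superoxide dismutases turn superoxide into hydrogen peroxide, which catalase, glutathione peroxidases and peroxiredoxins remove. The glutathione peroxidases and peroxiredoxins do so with reducing power from glutathione and thioredoxin. Glutathione transferases couple glutathione to reactive electrophiles, and the transcription factor NRF2 (Nfe2l2), held in check by KEAP1, induces many of these genes through the antioxidant response element. Beta cells are known for low catalase and glutathione peroxidase activity compared with liver, and they depend largely on the thioredoxin and peroxiredoxin arm for peroxide removal.

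The mu-class transferases Gstm5, Gstm1 and Gstm2 lie close together on chromosome 3 and include the largest difference in each direction between SRI-tg10 and control islets (Gstm5 and Gstm1), though none passed. Their promoters are shown for that reason, from 250 bases before to 50 bases after the RefSeq transcription start in build GRCm38.p6, 5′ to 3′ on the strand of the gene. Capitals mark matches to TGACNNNGC, the core letters of the antioxidant response element, searched on both strands. The Gstm5 window is chr3:107895604-107895903 on the plus strand. The windows of Gstm1 (chr3:108017769-108018068, the downstream of 2 starts) and Gstm2 (chr3:107986371-107986670) are on the minus strand.
Gstm5: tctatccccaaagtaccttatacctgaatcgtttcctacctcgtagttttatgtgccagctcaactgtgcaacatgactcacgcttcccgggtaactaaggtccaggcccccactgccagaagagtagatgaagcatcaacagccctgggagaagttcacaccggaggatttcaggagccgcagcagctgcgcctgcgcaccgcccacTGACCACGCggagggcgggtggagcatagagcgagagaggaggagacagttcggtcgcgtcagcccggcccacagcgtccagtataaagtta
Gstm1: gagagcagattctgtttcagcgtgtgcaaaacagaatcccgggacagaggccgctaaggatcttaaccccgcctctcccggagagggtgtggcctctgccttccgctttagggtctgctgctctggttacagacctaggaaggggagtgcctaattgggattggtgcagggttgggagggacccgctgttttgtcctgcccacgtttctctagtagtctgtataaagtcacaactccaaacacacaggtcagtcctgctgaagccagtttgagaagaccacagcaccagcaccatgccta
Gstm2: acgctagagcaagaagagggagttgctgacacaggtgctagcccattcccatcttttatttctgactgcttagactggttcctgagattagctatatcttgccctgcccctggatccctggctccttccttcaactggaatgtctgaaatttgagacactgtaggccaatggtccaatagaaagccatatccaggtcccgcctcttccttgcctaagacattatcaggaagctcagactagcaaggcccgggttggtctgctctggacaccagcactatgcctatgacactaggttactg
The Gstm5 window held 1 match, TGACCACGC, which began 42 bases before the start, and the other two windows held none. Among the 29 member genes with a promoter in the table, 9 had a match in at least 1 window, as had 14.0% of all 27025 genes and 12.4% of 32851 windows. They were Gclm, Gsta3, Gstm5, Mgst1, Nfe2l2, Prdx1, Sod1, Srxn1 and Txnrd1. A match is a description of the letters and not a measured binding site.

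In SRI-tg10 against control islets, 0 of the 30 measured genes differed at an adjusted p under 0.05 with limma, against 0.0218% of all tested probes. With 1 probe a gene, 15 were higher and 15 lower in SRI-tg10 islets (49.3% of all probes were higher), and their median difference was 0.00037 on the log2 scale, against -0.0036 over all probes. At an unadjusted p under 0.05 there was 1 gene, Gstm5, against 4.26% of all probes (2.42% lower, the direction of Gstm5). The control and SRI-tg10 arrays overlapped for all 30, and 0.169% of all probes did not overlap. The 95% interval of the difference lay within 0.5 either way for 15 of the 30 genes, and for 42.8% of all probes. In whole islets, fewer cells of a type and less RNA per cell cannot be told apart. Without control replicate 5 and SRI-tg10 replicate 4 the count was again 0, with 18 genes higher, 12 lower and a median of 0.03, and Gstm5 again was the 1 gene at an unadjusted p under 0.05 (5.19% of all probes).

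**Figure D1:**
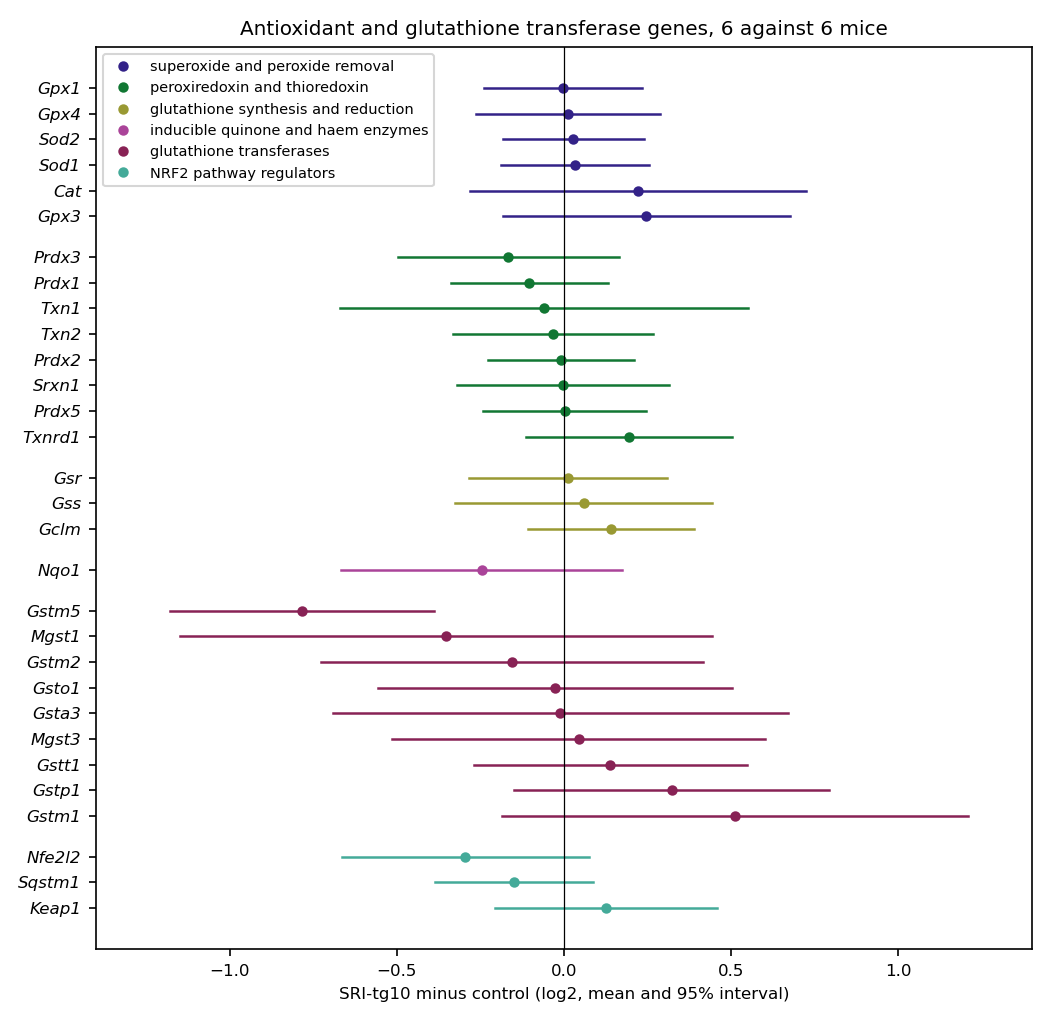
Difference between SRI-tg10 and control islets (horizontal axis, log2, SRI-tg10 minus control) for the 30 measured genes, grouped by role. Points are means of 6 against 6 arrays and lines are limma 95% intervals; the interval of Gstm5 alone excludes 0.

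Glutathione transferases, which conjugate glutathione to electrophiles, showed the widest range of differences among the roles, from -0.78 to 0.51 for 9 measured of 10 listed genes, 4 higher and 5 lower. Gstm5, a mu-class transferase, gave the largest. Its normalized log2 level on the control arrays, in replicate order, was 10.83, 9.96, 10.67, 10.61, 11.09 and 10.48. The SRI-tg10 arrays read 9.58, 9.58, 10.12, 10.20, 9.68 and 9.79. Every SRI-tg10 reading was under the control mean, and only control replicate 2 reached down into the SRI-tg10 range. In 3 of the 30 genes (Gstm5, Nfe2l2 and Nqo1) all 6 SRI-tg10 arrays were on 1 side of the control mean, against 9.4% of all probes. The difference was -0.78 ± 0.18 (SE; 95% interval -1.18 to -0.39), or 1.72-fold lower, with an unadjusted p of 0.000844 that did not pass (limma adjusted p = 0.922). It was -0.73 within letter A and -0.84 within letter B, and -0.76 without the 2 arrays with intestinal genes (limma adjusted p = 0.695). In the authors' deposited table the difference was -0.85 (p = 0.000138, adjusted p = 0.306).

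Gstm1, another mu-class transferase, pointed the other way. Control arrays read 8.65, 9.13, 8.04, 8.69, 6.97 and 8.79. In SRI-tg10 islets the levels were 9.33, 8.85, 9.38, 8.19, 8.97 and 8.64. The difference was 0.51 ± 0.32 (SE; limma adjusted p = 0.922) and did not pass, and without control replicate 5, the lowest array, it was 0.23 ± 0.23. A second tested probe, named Gstm1 only in the updated annotation, gave 0.63 ± 0.33. Mu-class genes resemble each other closely, so a probe of one may also bind RNA of another, and probe sequences were not analysed here.

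Gstm2, also of the mu class, did not pass by group, by letter or for the interaction of both. Control arrays of letter A read 10.48, 11.31 and 10.29, and those of letter B 11.48, 11.52 and 11.32. For SRI-tg10 the letter A arrays read 11.54, 10.52 and 11.15, and the letter B arrays 11.11, 10.95 and 10.22. Every letter B control thus lay above every letter B SRI-tg10 array, while the letter A arrays of both groups overlapped. The share of all probes separated in this way within a letter was not counted. The difference was -0.16 ± 0.27 (SE) over all arrays, 0.37 ± 0.35 within letter A and -0.68 ± 0.26 within letter B. The interaction of 1.06 ± 0.46 (SE) had an unadjusted p of 0.0429 and an adjusted p of 0.9996 with limma. It was the 1 of 30 genes under 0.05 unadjusted, against 2.33% of all probes, and 0 passed among 18315. Without the 2 arrays with intestinal genes it was 1.19 ± 0.54 (unadjusted p = 0.0535 and adjusted p = 0.9996 with limma). Its other two probes gave interactions of 1.14 ± 0.49 and 0.60 ± 0.35.

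**Figure D2:**
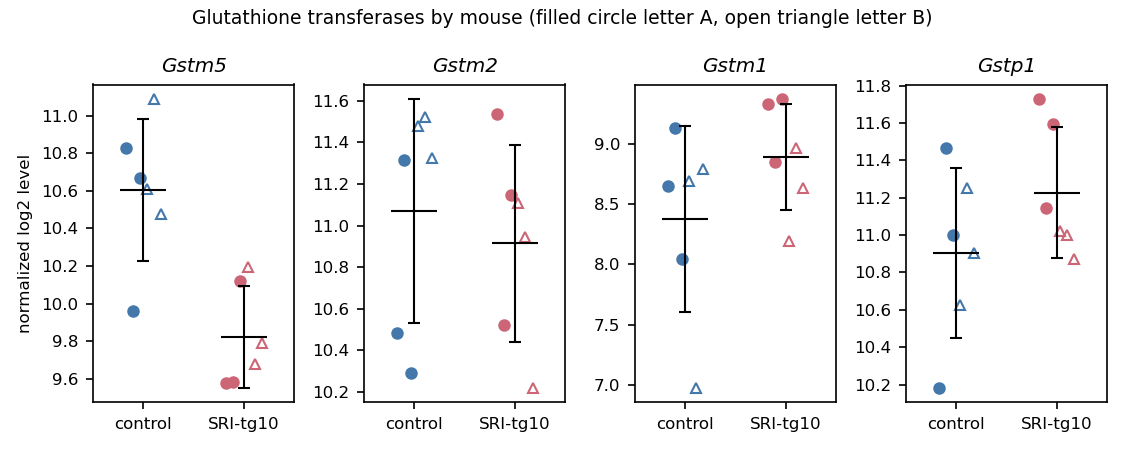
Normalized log2 level (vertical axis) of 4 glutathione transferases in 6 control and 6 SRI-tg10 mice. Points are single arrays (filled circles letter A, open triangles letter B), and bars are the group mean and SD; only Gstm5 separates the groups apart from control replicate 2 at 9.96.

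Gstp1, the pi-class transferase, read 10.18, 11.47, 11.00, 10.63, 11.25 and 10.91 on the control arrays. On the SRI-tg10 arrays it read 11.73, 11.15, 11.59, 11.02, 11.00 and 10.87, so 5 of the 6 lay above the control mean. Its difference was 0.32 ± 0.22 (SE; limma adjusted p = 0.922). It was 0.61 within letter A and 0.04 within letter B, and 0.18 without control replicate 1, the lowest array. Gsta3, an alpha-class transferase, hardly differed between the groups (-0.01 ± 0.32, SE) but varied widely among mice. Its control arrays read 8.29, 8.52, 7.48, 8.20, 8.84 and 8.45, and its SRI-tg10 arrays 8.58, 7.59, 8.57, 9.04, 8.75 and 7.15.

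Mgst1, a microsomal transferase of the outer mitochondrial membrane and endoplasmic reticulum, had the largest within-group SD of the 30 genes, 0.728. Control arrays read 8.16, 8.51, 7.79, 9.15, 9.18 and 8.94, and SRI-tg10 arrays 8.24, 7.22, 8.39, 9.69, 8.53 and 7.56. The difference of -0.35 ± 0.37 (SE) did not pass, and it was -0.52 without the 2 arrays with intestinal genes. Single arrays moved it widely, to -0.64 without SRI-tg10 replicate 4 and to -0.14 without SRI-tg10 replicate 2. In the authors' deposited table the Mgst1 difference was -0.62 (p = 0.0208, adjusted p = 0.814). Of the remaining transferases, Gstt1 (theta class) differed by 0.14 ± 0.19, Gsto1 (omega class) by -0.03 ± 0.25 and the microsomal Mgst3 by 0.04 ± 0.26. Gsta4, which acts on the lipid peroxidation product 4-hydroxynonenal in mammals, was detected on 3 arrays and not tested.

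Genes of superoxide and peroxide removal had small differences between the groups. Of 6 measured, 5 were higher and 1 lower, with differences from -0.0024 to 0.25, and none passed. Sod2, the mitochondrial manganese superoxide dismutase, had the smallest within-group SD of the 30 genes, 0.0991, and a difference of 0.03 ± 0.10 (SE). Cytosolic Sod1 differed by 0.03 ± 0.10, and the glutathione peroxidases Gpx1 and Gpx4, the latter specific for lipid peroxides, by -0.0024 ± 0.11 and 0.01 ± 0.13. Catalase (Cat) differed by 0.22 ± 0.23, at low intensities of 148 to 204, where the array medians were 127 to 167. A second Cat probe was detected on 0 arrays. Gpx3, the secreted glutathione peroxidase, read 12.73, 13.20, 12.92, 12.60, 11.89 and 12.69 in controls and 12.83, 12.85, 13.21, 12.46, 13.00 and 13.15 in SRI-tg10 islets. The Gpx3 difference was 0.25 ± 0.20 (SE; limma adjusted p = 0.922), with the lowest reading on control replicate 5. Without that array it was 0.09 ± 0.16, and without both arrays with intestinal genes 0.18 ± 0.14. It was 0.01 within letter A and 0.48 within letter B.

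Among 8 peroxiredoxin and thioredoxin genes, 2 were higher and 6 lower, and none passed. The peroxiredoxins Prdx1, Prdx2, Prdx3 and Prdx5 differed by -0.10, -0.01, -0.17 and 0.0024. Prdx1 and Prdx2 had intervals that stayed within 0.34 of 0 (-0.34 to 0.13 and -0.23 to 0.21). Some Prdx1 probes carry names of near copies in the older annotation, so the signals of these copies and of Prdx1 cannot be told apart. Txnrd1, the cytosolic thioredoxin reductase, read 5.54, 5.50, 5.64, 5.65, 5.73 and 5.48 in controls and 5.35, 6.08, 6.17, 5.59, 5.88 and 5.64 in SRI-tg10 islets. Its SRI-tg10 arrays spread to both sides of the controls, and the difference was 0.19 ± 0.14 (SE; limma adjusted p = 0.922). Txnrd1 intensities were low, at 139 to 207. Thioredoxin (Txn1), mitochondrial Txn2 and sulfiredoxin (Srxn1), which repairs over-oxidised peroxiredoxins, differed by -0.06, -0.03 and -0.0017.

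Glutathione synthesis and reduction had 3 measured genes of 4, all with higher means and none past the threshold. Gclm, the modifier subunit of glutamate-cysteine ligase, differed by 0.14 ± 0.12 (SE). Its levels were 9.25, 9.33, 9.38, 9.25, 9.11 and 8.99 in controls and 9.50, 9.45, 9.49, 9.21, 9.08 and 9.42 in SRI-tg10 islets, and the groups overlapped. Glutathione synthetase (Gss) differed by 0.06 ± 0.18 and glutathione reductase (Gsr) by 0.01 ± 0.14. The other three Gss probes gave 0.43, 0.11 and -0.13, so the probes of this gene disagreed in direction, as did other probes of Mgst3, Prdx5 and Srxn1. Gss was low, with intensities of 152 to 225 for its brightest probe, and the probe at -0.13 was detected on 7 arrays. In all, 18 of the other tested probes had the sign of their gene's brightest probe and 4 the opposite sign. Gclc, the catalytic subunit of the ligase, was detected on 1 array.

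Nfe2l2, which encodes NRF2, read 6.73, 6.85, 6.49, 6.73, 7.42 and 6.99 in controls. In SRI-tg10 islets it read 6.70, 6.50, 6.71, 6.85, 6.04 and 6.66, each below the control mean, with replicate 5 below every control array and the other five within the control range. The difference was -0.29 ± 0.17 (SE; limma adjusted p = 0.922), and it was -0.06 within letter A and -0.53 within letter B. Keap1, the adaptor that marks NRF2 for degradation, differed by 0.13 ± 0.15. Sqstm1, which encodes the autophagy receptor p62 that binds KEAP1, read 11.17, 11.06, 11.35, 11.37, 11.21 and 11.30 in controls and 11.00, 11.01, 11.31, 11.21, 10.87 and 11.17 in SRI-tg10 islets. That difference, -0.15 ± 0.11 (SE), did not pass either.

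Nqo1, a quinone reductase used widely as a readout of NRF2, was read at 6.07, 5.48, 5.90, 5.26, 6.65 and 5.94 in controls and at 5.72, 5.49, 5.82, 5.53, 5.69 and 5.58 in SRI-tg10 islets. The tested Nqo1 probe was detected on 11 of 12 arrays, at intensities of 149 to 228, and a second Nqo1 probe on 0. The control arrays spread on both sides of the SRI-tg10 range. The difference was -0.25 ± 0.20 (SE; limma adjusted p = 0.922), and it was -0.07 without the 2 arrays with intestinal genes. Haem oxygenase 1 (Hmox1) was detected on 0 of 12 arrays.

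Other genes of these pathways, a list of 81 with 62 measured, gave the same kind of count: 30 were higher, 32 lower and 0 passed. At an unadjusted p under 0.05 there was 1 of 62, against 4.26% of all probes. It was Ftl1, which encodes the light chain of the iron store ferritin, at 0.30 ± 0.14 (SE). The largest negative difference was that of Hpgds, the haematopoietic prostaglandin D synthase of the sigma class of transferases, at -0.50 ± 0.25 with detection on 10 arrays. Macrophage and dendritic cell markers had higher means in SRI-tg10 islets in 16 of 16 cases (median 0.25), and lymphocyte markers in 7 of 9 (median 0.69), with 0 of either past the threshold. Their mean centred levels overlapped, from -0.78 to 1.02 in controls and -0.61 to 0.82 in SRI-tg10 islets for the first list, and from -1.85 to 1.54 and -1.62 to 2.23 for the second. Erythroid markers had higher means in 6 of 6 cases (median 0.22), against 49.3% of all probes. Of 10 beta cell markers, 5 were higher and 5 lower (median -0.01). At an unadjusted p under 0.05 with limma, 2 beta cell markers were lower and 0 higher, against 2.42% of all probes lower. No erythroid or beta cell marker passed. No marker of the adipocyte list was detected often enough to be tested. The part of these cells in the differences above was not tested.

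The title letters are the one other label by which these genes can vary. Across all probes, 17 differed between the letters at an adjusted p under 0.05 (0.0928%), and 0 of the 30 members did. At an unadjusted p under 0.05 there were 6 of 30, 3 higher in letter A (Srxn1, Keap1 and Gclm) and 3 lower (Txn1, Prdx3 and Mgst1), against 16.8% of all probes (11.1% higher and 5.69% lower). By the sign of the mean, 10 of the 30 were higher in letter A, against 53.9% of all probes. Without control replicate 5 and SRI-tg10 replicate 4, both of letter B, 18 were higher and 12 lower (median 0.04). The share of all probes that were higher was not counted for that fit. Over all 12 arrays, the letters overlapped for all 30 genes (1.92% of all probes did not overlap).

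Txn1 had the smallest p among them. Its letter A arrays read 8.06, 7.72 and 7.83 in controls and 7.53, 7.61 and 8.36 in SRI-tg10 islets. Its letter B arrays read 8.45, 9.32 and 8.07, and 8.74, 8.27 and 8.59. The difference, letter A minus letter B, was -0.72 ± 0.21 (SE; unadjusted p = 0.00487, limma adjusted p = 0.162), and only SRI-tg10 replicate 3 of letter A reached into the letter B range. Without the 2 arrays with intestinal genes, both of letter B, it was -0.50 ± 0.18 (unadjusted p = 0.0214 and adjusted p = 0.369 with limma).

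Srxn1 ran the other way, with letter A at 8.28, 8.52 and 8.55 in controls and 8.44, 8.12 and 8.40 in SRI-tg10 islets. In letter B it read 7.87, 8.24 and 7.87, and 8.20, 8.00 and 8.16. Its difference was 0.33 ± 0.12 (SE; limma adjusted p = 0.212), and 0.41 ± 0.12 without the 2 arrays. Its other probes, also named Srxn1 only in the updated annotation, gave 0.09 ± 0.21 and 0.20 ± 0.15.

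Keap1 read 10.28, 10.49 and 10.53 (controls) and 10.23, 10.44 and 10.59 (SRI-tg10) in letter A. Its letter B arrays read 10.12, 9.68 and 10.06, and 10.05, 10.26 and 10.35. The difference was 0.34 ± 0.12 (SE; limma adjusted p = 0.212), and the other three probes gave 0.36, 0.27 and 0.27. Prdx3, the mitochondrial peroxiredoxin, read 9.19, 9.32 and 9.35, and 8.91, 9.15 and 9.26, in letter A, and 9.46, 9.97 and 9.38, and 9.57, 9.23 and 9.56, in letter B. Its difference was -0.33 ± 0.13 (SE; limma adjusted p = 0.233).

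The differences of Mgst1 (-0.79 ± 0.31, SE) and Gclm (0.22 ± 0.10, SE) had limma adjusted p-values of 0.249 and 0.274. Without the 2 arrays, Gclm kept a letter difference of 0.21 and Keap1 one of 0.23, while Prdx3 was at -0.21 and Mgst1 at -0.49. Each of these 4 then had an unadjusted p above 0.05 with limma. Txn1 and Srxn1, 2 of the 30 genes, were still under it, against 11.1% of all probes. Lymphocyte markers were lower in letter A in 9 of 9 cases (median -0.76) and erythroid markers in 6 of 6 (median -0.58). Macrophage and dendritic cell markers were lower in 13 of 16 (median -0.19). Beta cell markers were higher in letter A in 7 of 10 cases (median 0.14), as were 53.9% of all probes. At an unadjusted p under 0.05 with limma, 4 beta cell markers were higher and 1 lower. So were 2 macrophage and dendritic cell markers (both lower) and 0 lymphocyte or erythroid markers, against 16.8% of all probes. The lymphocyte levels ranged from -1.62 to 1.07 in letter A and from -1.85 to 2.23 in letter B, and their part in the letter differences was not tested.

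Several members followed the 2 arrays with intestinal genes. For 7 of the 30 genes (Gsta3, Gsto1, Mgst1, Mgst3, Prdx3, Prdx5 and Txn1) control replicate 5 and SRI-tg10 replicate 4 were the 2 highest arrays, as for 3.34% of all probes. For Gpx3 and Keap1 they were the 2 lowest, as for 8.44% of all probes. Gsto1, which reduces dehydroascorbate and arsenic species, read 10.58 and 10.48 there and 9.25 to 9.64 on the other arrays. Mgst3, a microsomal transferase and peroxidase, read 11.20 and 11.23, against 9.80 to 10.44 elsewhere. Gsta4 read 8.52 and 7.69, against 4.81 to 5.65 on the other 10 arrays, of which 1 (control replicate 4) passed detection. One of these arrays is a control and the other an SRI-tg10 mouse, and the part of intestinal RNA in these levels was not tested.

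**Figure D3:**
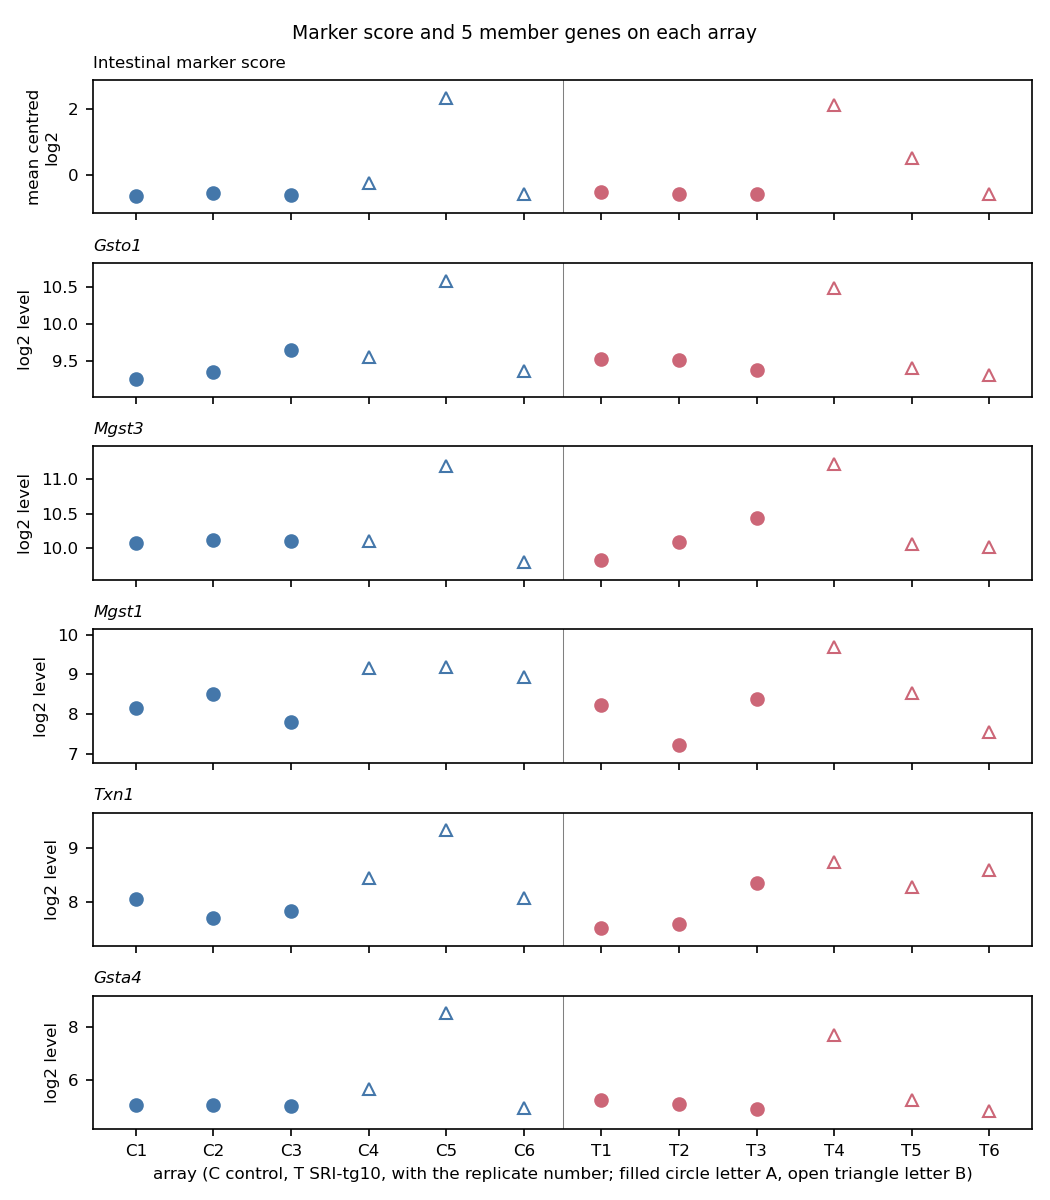
Mean centred level of 30 intestinal epithelium markers (top panel) and normalized log2 level of 5 member genes (lower panels) on each of 12 arrays; filled circles are letter A and open triangles letter B. Control replicate 5 (C5) and SRI-tg10 replicate 4 (T4) are the 2 highest arrays in every panel. Only genes with this pattern are shown, and 7 of the 30 measured genes had it.

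The variation of the members among mice was also set against markers of non-endocrine cells, as mean centred levels of acinar, duct, endothelial, stellate and erythroid lists over 12 arrays. Of 150 relations, 10 had an unadjusted permutation p under 0.05 and 0 passed after adjustment over all probes. The 10 were 2 of 30 genes for acinar (4.52% of all probes), 3 for duct (9.31%), 1 for endothelial (10.4%), 1 for stellate (13.3%) and 3 for erythroid markers (12.7%). Adjusted, 0.126% of all probes passed for stellate and 0.0492% for erythroid markers, and 0.0% for endothelial. Macrophage and lymphocyte levels fell into separate clusters of 7 and 5 arrays, so no correlation over all arrays is given for them. The closest relation was that of Gsta3 with the duct markers, with Pearson r = 0.957 and Spearman rho = 0.958 (permutation p = 2e-05 and 1e-05, the latter the smallest that the resamples can give). After adjustment over 18307 probes its permutation p was 0.275, and 0.0% of probes passed for duct markers. The relation was 0.950 within letter A and 0.972 within letter B, and 0.903 without the 2 arrays farthest from the median (permutation p = 0.0001). Without control replicate 5 and SRI-tg10 replicate 4 it was 0.945. With both measures centred within group and letter, the adjusted permutation p was 0.0229. That p is likely too small, because values centred in this way are no longer independent, yet they were permuted freely over all 12 arrays.

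Gstp1 was related most closely to acinar markers, r = 0.898 and rho = 0.741 (permutation p = 0.00023 and 0.00805, adjusted 0.0533 for r), where 0.41% of probes passed. Within the letters r was 0.946 and 0.697, and it was 0.718 without the 2 farthest arrays (permutation p = 0.0185). Without control replicate 5 and SRI-tg10 replicate 4, r was 0.903. Centred within group and letter, the adjusted permutation p was 0.00352, which is likely too small for the same reason. All points share the array, its scaling and the mouse, and an islet preparation with more duct or acinar tissue and one with more RNA of these genes per cell cannot be told apart. SRI-tg10 replicate 4, with high intestinal genes, also had the highest duct marker level, 0.25. The part of intestinal RNA in these relations was not tested.

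**Figure D4:**
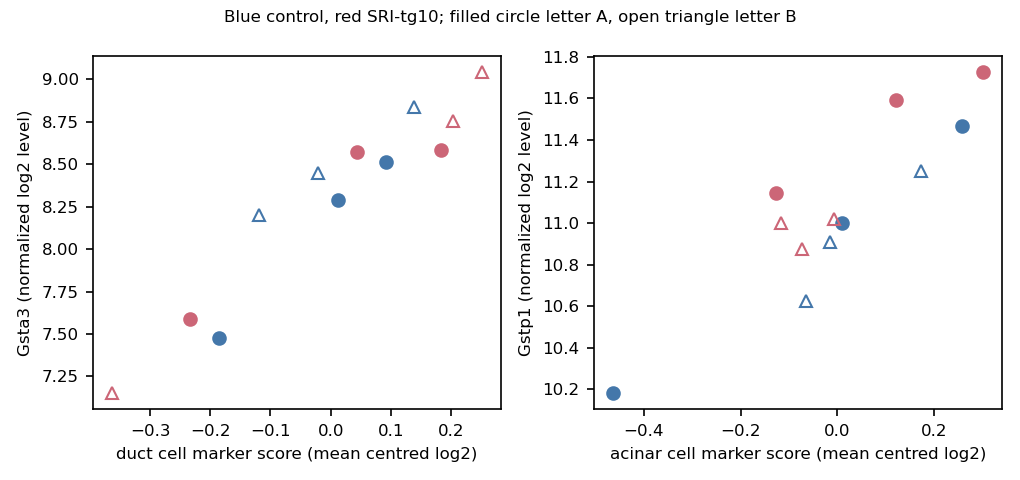
Left, Gsta3 level against the mean centred duct marker level; right, Gstp1 level against the acinar marker level, each point 1 of 12 arrays (blue control, red SRI-tg10, filled circles letter A, open triangles letter B; both axes log2). Points of both groups lie along 1 trend in each panel, with r = 0.957 and 0.898.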

How the data were processed

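Per the labels' protocols, total RNA was extracted with Trizol and labelled with biotin for Illumina bead arrays. The submitters' processing notes name GenomeStudio. Per the file headers, the deposited table holds each array's mean bead intensity (linear, with no normalization visible in the values) and a detection p-value. The authors' own comparison table, also deposited, lists log2 fold changes with mean log2 levels, t scores and p-values. Its direction, SRI-tg10 minus control, was found from the intensities (r = 0.81 with the differences computed here over 18315 probes). The log2 values of the deposited series matrix were compared with the intensities and not used further.

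Intensities were background-corrected, quantile-normalized and put on the log2 scale with neqc (limma 3.58.1, R 4.3.3, offset 16). Probes with detection p under 0.05 on at least 6 of 12 arrays were kept (18315). The groups, the title letters (with the group as a term) and their interaction were each fitted on all kept probes with lmFit and eBayes, two-sided, with Benjamini-Hochberg adjustment and a threshold of 0.05. A gene is represented by its brightest kept probe. Correlations used 100000 permutations. Members and lists were chosen with earlier results of these data known. Every array value is given for the 8 members with the smallest p by group, the 8 by letter and the 6 with the largest SD. The labels number the mice separately. The number of arrays limits the precision. On simulated arrays with 200 of 18315 probes changed between the groups, 13% of 1.5-fold and 63% of 2-fold changes were recovered. Promoters came from RefSeq (GRCm38.p6) by symbol, for 29 of 33 genes.

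Alternatives were 2 other normalizations, 3 detection filters, array weights, the letter as a block, fits within each letter, every kept probe of a gene, the authors' table, each array left out in turn and, added after seeing the data, both arrays with intestinal genes left out.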

Additional observations from a re-analysis of the deposited data

Results flagged for a closer look

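Within the 60 groups of 6 arrays formed by the 30 measured genes, 5 held an array far from the other 5 by Dixon's criterion, and chance gives such a gap in about 1 of 20 groups. Gsto1 was high in control replicate 5 at 10.58, where the next control read 9.64. It was likewise high in SRI-tg10 replicate 4 at 10.48, where the next SRI-tg10 array read 9.52. Mgst3 stood at 11.20 in control replicate 5 against 10.12 for the next control, and Prdx3 at 9.97 against 9.46. These 4 readings are on the 2 arrays with high intestinal epithelium markers. Sod2 was low in control replicate 3 at 11.77, where the other controls read 12.02 to 12.12, on an array without high intestinal markers.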

How the results depend on the processing

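The count of member probes past the threshold was 0 by group, by letter and for the interaction under every alternative that was run. Over the 16 genes with values on every array, 367 alternative group differences were computed. Of these 25, in 5 genes (Gsta3, Gstm2, Keap1, Srxn1 and Txn1), had the opposite sign, 8 moved by more than the SE of the main difference, and 0 passed. Gstm5 ranged from -0.91 to -0.69, with its smallest limma adjusted p, 0.191, without control replicate 2. Over all probes, the number differing by group was 3 to 5 on leaving out 1 array and 0 within letter B. The number differing by letter was 7 with 75th percentile scaling, 9 for probes detected on all 12 arrays, 38 with array weights, and 4 (without SRI-tg10 replicate 4) to 19 (without control replicate 5) on leaving out 1 array. Relations with marker levels past the threshold numbered 3 when centred within group and letter, where permutation p-values are likely too small, and 1 without background correction. The cause of these shifts was not tested. The series matrix alternative was not run, because 2 of its 12 columns matched best the array of their own label, and 3 labelled control and 3 labelled SRI-tg10 held Sri levels of the other group. No paired analysis was possible because the labels number the mice separately and give no shared replicate numbers. Gclc, Gsta4 and Hmox1 were detected on 1, 3 and 0 arrays and were not tested.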

Other observations

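Among other genes of glutathione and redox metabolism, 6 of 62 measured had an unadjusted p under 0.05 between the title letters, 2 higher in letter A and 4 lower, against 16.8% of all probes, and 0 passed. Ggt7, a member of the gamma-glutamyltransferase family, had a letter difference (A minus B) of 0.78 ± 0.18 (SE; adjusted p = 0.114 with limma), and Sesn2, a stress-inducible sestrin, one of 0.31 ± 0.13. The negative differences were those of the glutaredoxin Glrx3 at -0.71 ± 0.20, Sesn1 at -0.42 ± 0.15, the cytosolic isocitrate dehydrogenase Idh1, a source of NADPH, at -0.50 ± 0.18, and the microsomal transferase Mgst2 at -1.80 ± 0.54, the last with detection on 8 arrays. The meaning of the letters is not stated in the sources used here.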
